A study of Mus musculus with 17 samples.

Results

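This report covers 10 genes of insulin, IGF and FoxO signaling in the mouse diaphragm: Igf1, Igf1r, Igfbp5, Irs1, Irs2, Pik3r1, Foxo1, Foxo3, Foxo4 and Eif4ebp1. They were chosen by symbol, 10 of the 47643 gene symbols in the deposited table, and all 10 were among the 13305 genes that passed the filter on low values (at least 1 TPM in at least 3 samples). TPM is a read count divided by gene length and scaled to the same sum (1000000 transcripts) in every sample, so levels can be set side by side between genes. RNA was sequenced from the skeletal muscle part of the diaphragm of 17 male C57BL/6J mice aged 4 months, 1 sample per mouse, in 4 groups. Control mice (n = 5) had no tumor and received mock injections, and Control + rFibcd1 mice (n = 5) had no tumor and received rFibcd1, a recombinant C-terminal fragment of the mouse secreted protein Fibcd1, into the peritoneal cavity. LLC mice (n = 3) bore flank tumors of Lewis lung carcinoma, a mouse cell line implanted under the skin, and received mock injections, and LLC + rFibcd1 mice (n = 4) carried the same tumors and received rFibcd1. The tumor model is a single transplanted cell line, the samples are whole tissue rather than isolated myofibers, and the LLC group is the smallest of the 4.

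Insulin and the insulin-like growth factors bind tyrosine kinase receptors, which recruit the adaptor proteins Irs1 and Irs2 and, through them, phosphoinositide 3-kinase and the kinase Akt. Active Akt raises protein synthesis through mTOR, which relieves the block that Eif4ebp1 places on translation, and keeps the FoxO transcription factors out of the nucleus. When the signal falls, as in fasting or wasting, nuclear FoxO proteins switch on genes for muscle protein breakdown, among them the ubiquitin ligases Fbxo32 and Trim63. These controls act largely on proteins and their phosphorylation, and only RNA was measured here.

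The comparisons asked how the tumor changed these transcripts, with and without rFibcd1, and how rFibcd1 changed them in mice with and without a tumor. In short, with TPM as deposited 8 of the 10 genes passed the test in no comparison. Pik3r1 was lower with a tumor in mice that received rFibcd1, Foxo4 was slightly lower with a tumor in mock-injected mice, and Irs2 varied more between mice of 1 group than between groups. Log2 changes below are differences of log2(TPM + 1), which understate the change of low genes, each given with its standard error (SE). Adjusted p-values are from limma with Benjamini-Hochberg adjustment over all 13305 genes, two-sided, with 0.05 as the threshold for a call.

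An estimated 50.7 to 54.7 reads in units of 1000000 stood behind each sample, which put between 439 (Igf1) and 41673 (Igfbp5) reads on a member in a mouse. The summed level of 8 myofiber markers lay between 48188 and 63321 TPM in all mice, with 48188 to 51906 TPM in LLC mice and 57336 to 62040 TPM in Control mice, and 4 of the 8 were called lower in LLC against Control. Markers of other cells were higher there: 6 of 6 B cell markers, 6 of 6 T cell markers, 5 of 5 neutrophil markers and 5 of 8 macrophage markers were called. Also called higher were 1 of 6 endothelial markers and 3 of 5 smooth muscle and pericyte markers, with 1 of these 5 called lower. The summed B cell markers were 2.54 to 95.9 TPM in Control mice, 3.57 to 139 TPM in Control + rFibcd1 mice, 217 to 274 TPM in LLC mice and 18.4 to 269 TPM in LLC + rFibcd1 mice. Mitochondrially encoded transcripts took 41.3% to 50.4% of TPM, with the lowest share in an LLC mouse. The median gene was 0.16 higher in LLC against Control on the log2 scale and 0.11 higher in LLC + rFibcd1 against Control + rFibcd1, and after rescaling without mitochondrial genes it was 0.08 and 0.06 higher. With median-ratio scaling it was 0.0055 and 0.0025, and with quantile normalization -0.10 and -0.03. Changes near 0 can therefore change sign with the scaling. Of the genes called in LLC against Control, 83.2% were higher with TPM as deposited, 64.2% after rescaling without mitochondrial genes, 52.7% with median-ratio scaling and 32.2% with quantile normalization. Calls in LLC against Control rest on few mice: the 4759 genes called fell to 24 without LLC replicate 3 and to 2272 without LLC replicate 1, and to 17 or 8 with a macrophage or B cell marker score as a covariate. Both scores were higher in every LLC mouse than in any Control mouse. The macrophage score was 0.96 to 1.45 against -0.61 to 0.26, and the B cell score 1.16 to 1.43 against -1.46 to 0.47. In this comparison, a fit with a score therefore cannot separate the score from the tumor. In these bulk samples, fewer cells of a type and less RNA per cell cannot be told apart.

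Among the 10 genes, levels in Control mice spanned a wide range. Igfbp5, which codes for a secreted IGF-binding protein, was highest at 213 ± 34.8 TPM (SD, n = 5), and its range did not overlap that of any other member. Eif4ebp1 at 85.7 ± 15.7 TPM and Foxo4 at 82.3 ± 2.52 TPM followed, with overlapping ranges. Irs2 at 24.1 ± 17.7 TPM overlapped Pik3r1 at 16.9 ± 1.56 TPM. Foxo3 at 11.8 ± 1.48 TPM, Foxo1 at 9.41 ± 2.93 TPM and Irs1 at 8.51 ± 1.47 TPM overlapped each with the next, and the receptor Igf1r at 4.72 ± 0.425 TPM and its ligand Igf1 at 4.28 ± 0.608 TPM were lowest and overlapped. Foxo4 therefore made up most of the FoxO transcripts, 72.9% ± 3.00 of the summed TPM of Foxo1, Foxo3, Foxo4 and Foxo6 in Control mice, with Foxo3 at 10.4% ± 0.963.

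**Figure D1:**
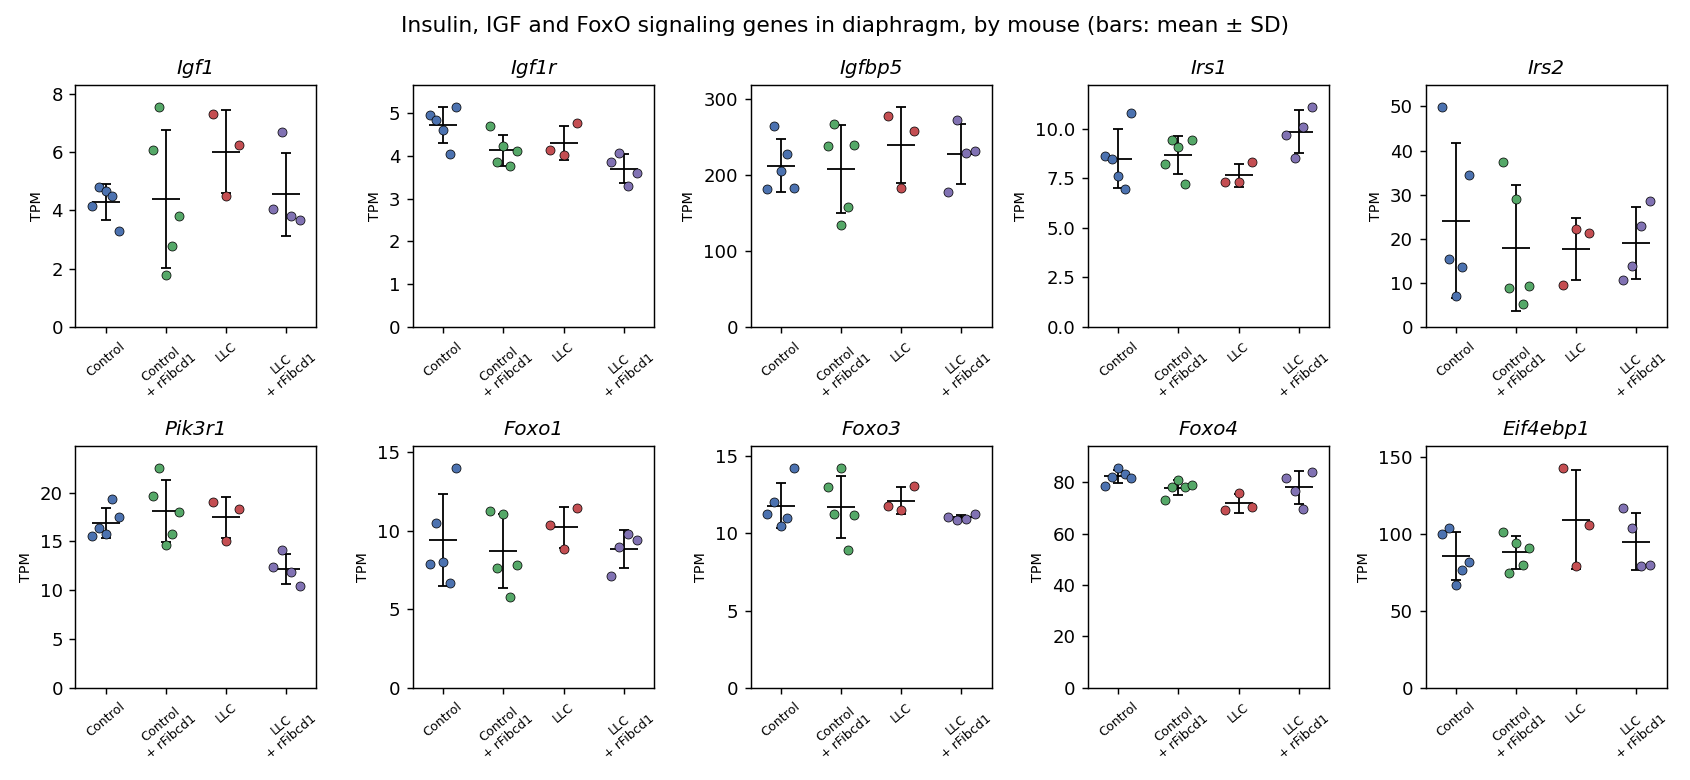
Level of each of the 10 genes in TPM (vertical axes from 0) in every mouse, by group (horizontal axis); points are mice, long ticks are group means and bars are 1 SD. The 4 LLC + rFibcd1 mice sit below all Control + rFibcd1 mice for Pik3r1, the 3 LLC mice sit below all Control mice for Foxo4, and Irs2 spreads from 5.25 to 49.9 TPM among mice without a tumor.

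Pik3r1 codes for the p85-alpha regulatory subunit of phosphoinositide 3-kinase, which docks the catalytic subunit on Irs proteins. The gene lies on the minus strand at chr13:101680563-101768217 (GRCm38, GENCODE vM21). Control mice measured 15.5, 16.4, 15.8, 19.3 and 17.5 TPM, and Control + rFibcd1 mice measured 19.7, 22.6, 14.6, 15.8 and 18.0 TPM. LLC mice measured 19.0, 15.1 and 18.3 TPM, and LLC + rFibcd1 mice measured 12.4, 14.1, 11.8 and 10.4 TPM. All 4 LLC + rFibcd1 mice were below the lowest of the other 13 mice, while LLC and Control mice overlapped. In LLC + rFibcd1 against Control + rFibcd1 the log2 change was -0.53 (SE 0.12, limma adjusted p = 0.0140), or -0.64 relative to the median gene. This was the only member of 10 called in that comparison, against 8.06% of all genes (7.02% higher and 1.04% lower), and the only member whose groups did not overlap, against 8.91% of all genes.

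In LLC against Control, Pik3r1 differed by 0.04 (SE 0.13, 95% interval -0.23 to 0.31, limma adjusted p = 0.813). Its sign changed under the 3 other scalings (-0.06 to -0.16, adjusted p 0.203 to 0.714). The difference between both tumor effects, the interaction of tumor and rFibcd1, was -0.57 (SE 0.17, limma unadjusted p = 0.00465) and missed the threshold after adjustment (limma adjusted p = 0.235), so the tumor effect on Pik3r1 was not shown to differ between mock and rFibcd1 mice. LLC + rFibcd1 mice against LLC mice gave -0.49 (SE 0.13, limma adjusted p = 0.137), and an exact permutation test of these 3 against 4 mice, two-sided and not adjusted, gave p = 0.0286, the smallest it can give. LLC + rFibcd1 mice against Control mice gave -0.45 (SE 0.12, limma adjusted p = 0.0510), just short of the threshold with TPM as deposited and past it under the 3 other scalings (-0.50 to -0.51, adjusted p 0.0113 to 0.0246). Over all 7 tumor-bearing against all 10 tumor-free mice, Pik3r1 was called lower by -0.28 (SE 0.09, limma adjusted p = 0.0174), the only member called against 44.8% of all genes (38.8% higher and 5.98% lower). That pooled value rests on the LLC + rFibcd1 mice: without their replicate 3 or 4 the adjusted p was 0.0516 or 0.0590 (range 0.0120 to 0.0590 over the 17 fits that left out 1 mouse). Also called higher in this pooled comparison were 6 of 6 B cell, 6 of 6 T cell, 5 of 5 neutrophil, 5 of 8 macrophage and 3 of 6 endothelial markers. The same held for 2 of 5 smooth muscle and pericyte markers, while 5 of 8 myofiber markers were called lower, as Pik3r1 was. The pooled value of Pik3r1 was -0.40 (limma adjusted p = 0.0211) with the macrophage score as a covariate and -0.35 (adjusted p = 0.0810), no longer called, with the B cell score.

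The Pik3r1 call in LLC + rFibcd1 against Control + rFibcd1 alone held in 17 of 17 fits that left out 1 mouse (limma adjusted p 0.0104 to 0.0435), and was lost at adjusted p = 0.0724 when only these 2 groups entered the fit. With the macrophage or the B cell score as a covariate, Pik3r1 stayed called in this comparison, at -0.61 (limma adjusted p = 0.00639) and -0.58 (adjusted p = 0.0185). Called higher beside it were 5 of 5 neutrophil markers (summed level 54.9 to 206 TPM against 2.87 to 78.2 TPM) and 3 of 6 endothelial markers (215 to 236 TPM against 163 to 197 TPM). Called lower, as Pik3r1 was, were 2 of 8 myofiber markers (summed level 51248 to 59099 TPM against 56156 to 63321 TPM). The part of these 3 marker lists in the Pik3r1 value was not tested.

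Pik3r1 is 1 of 3 genes for regulatory subunits of this kinase class, and a share of their summed TPM is the same whatever factor multiplies a whole sample, though quantile normalization would change it. Pik3r1 took 54.2% ± 3.12 (SD, n = 5) of the sum in Control mice, 56.6% ± 2.60 (n = 5) in Control + rFibcd1 mice, 49.6% ± 2.06 (n = 3) in LLC mice and 43.9% ± 2.53 (n = 4) in LLC + rFibcd1 mice. The LLC + rFibcd1 mice, at 42.7%, 47.4%, 43.7% and 41.6%, lay below every other mouse. Pik3r3 took 15.9% ± 1.53 in LLC + rFibcd1 mice against 10.3% ± 1.25 in Control + rFibcd1 mice, and was itself called higher between them (log2 change 0.35, SE 0.09, limma adjusted p = 0.0272), a call lost under the 3 other scalings (adjusted p 0.0575 to 0.301). Pik3r2 was called higher in LLC against Control (0.32, SE 0.08, limma adjusted p = 0.0128), also lost with median-ratio scaling (0.15) and quantile normalization (0.07).

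**Figure D2:**
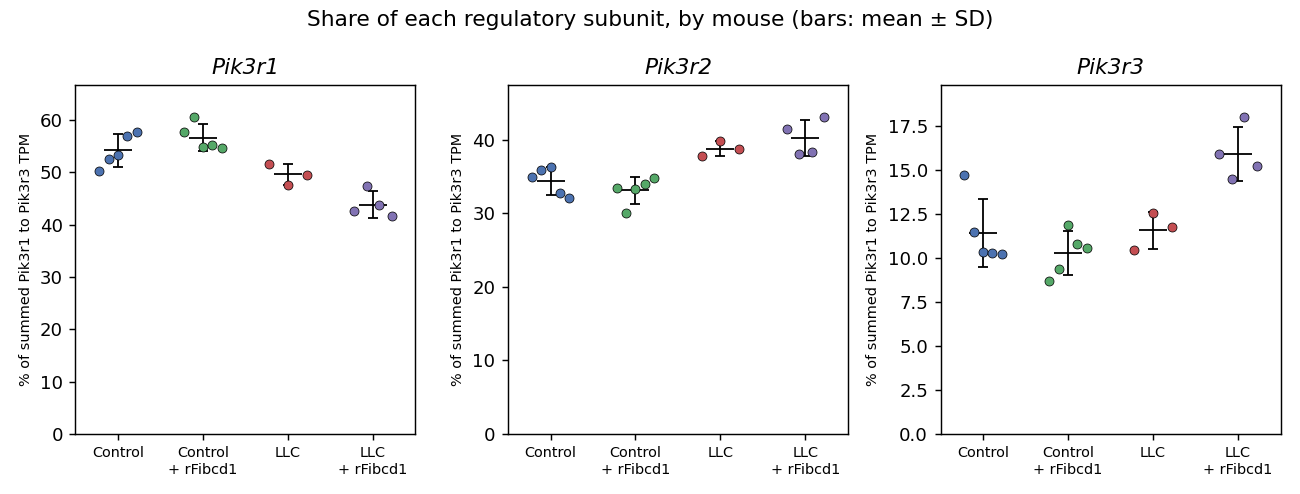
Share of Pik3r1, Pik3r2 and Pik3r3 in their summed TPM (vertical axes, percent, from 0) in every mouse, by group; points are mice, long ticks are means and bars are 1 SD. Pik3r1 averages 56.6% in Control + rFibcd1 mice and 43.9% in LLC + rFibcd1 mice, and these groups do not overlap.

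Of the 4 FoxO factors, Foxo4 and Foxo6 were called lower in LLC against Control, and 0 were called higher. Foxo4, on chromosome X at chrX:101254528-101260873 (plus strand), was the steadiest member. Control mice measured 78.7, 82.2, 85.7, 83.2 and 81.8 TPM, Control + rFibcd1 mice 73.1, 78.1, 80.9, 78.2 and 79.0 TPM, LLC mice 69.1, 75.9 and 70.4 TPM, and LLC + rFibcd1 mice 81.8, 76.5, 69.5 and 84.1 TPM. The LLC mice were all below the Control mice, while the LLC + rFibcd1 mice spread over both. In LLC against Control Foxo4 was lower by -0.19 (SE 0.06, limma adjusted p = 0.0181), or -0.36 relative to the median gene. It was the only member of 10 called, against 35.8% of all genes (29.7% higher and 6.02% lower), and the only member whose groups did not overlap, against 40.2% of all genes. Counts over 10 members are small, and the shares of all genes called higher or lower depend on the scaling.

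In LLC + rFibcd1 against Control + rFibcd1 Foxo4 differed by -0.00022 (SE 0.05, 95% interval -0.11 to 0.11, limma adjusted p = 0.998; -0.07 to -0.13 under the 3 other scalings), and the interaction was 0.19 (SE 0.08, limma unadjusted p = 0.0211, adjusted p = 0.433). The direction in LLC against Control was the same under all 3 other scalings (-0.30 to -0.38), each past the threshold. The call was lost without LLC replicate 1 (-0.17, limma adjusted p = 0.0749) or replicate 3 (-0.18, adjusted p = 0.0855). It was also lost with the macrophage score (-0.14, adjusted p = 0.237) or the B cell score (-0.08, adjusted p = 0.506) as a covariate. Both scores were higher in every LLC mouse than in any Control mouse, so these fits cannot separate the scores from the tumor. Myofiber markers were lower in LLC mice, and their part in the Foxo4 value was not tested.

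With TPM as deposited, Foxo1 and Foxo3 were called in no comparison. Of the 4 scalings, only quantile normalization put Foxo3 past the threshold, over all tumor-bearing and tumor-free mice (-0.21, limma adjusted p = 0.0452). Foxo1 measured 7.85, 10.5, 8.02, 6.66 and 14.0 TPM in Control mice and 10.4, 8.83 and 11.4 TPM in LLC mice, a log2 change of 0.14 (SE 0.21, 95% interval -0.31 to 0.60, limma adjusted p = 0.619) that became -0.02 with median-ratio scaling and -0.11 with quantile normalization. It measured 11.2, 7.60, 11.1, 5.78 and 7.82 TPM in Control + rFibcd1 mice and 7.11, 8.99, 9.78 and 9.43 TPM in LLC + rFibcd1 mice (0.05, SE 0.20, adjusted p = 0.894, and -0.02 to -0.09 under the 3 other scalings). Foxo3 stayed between 8.91 and 14.3 TPM, and its 4 LLC + rFibcd1 mice, at 11.1, 10.9, 10.9 and 11.3 TPM, lay just below the 3 LLC mice, at 11.8, 11.5 and 13.1 TPM (-0.12, SE 0.12, limma adjusted p = 0.490, but 0.04 with quantile normalization). Foxo6, the remaining family member, was called lower in LLC against Control, at 5.91 ± 0.429 TPM (n = 3) against 9.53 ± 0.780 TPM (n = 5), a log2 change of -0.61 (SE 0.17, limma adjusted p = 0.0173) that stayed past the threshold under all 3 other scalings but not without LLC replicate 1 or 3 (adjusted p up to 0.0725).

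Irs1 and Irs2 code for the main adaptors that carry the signal from the receptors to phosphoinositide 3-kinase, and the Irs2 promoter is a known target of FoxO factors. RefSeq promoter windows (GRCm38.p6, from 250 bases before to 50 bases after a gene's start) were on hand for 8 of the 10 genes, 9 windows in all since Pik3r1 has 2. Of 5 motifs searched on both strands, only 2 occurred in the members' windows, and only in those of Irs1 and Irs2: the insulin response element CAAAACA or TGTTTTG, found in 6.29% of 32817 windows, and the E-box CACGTG, found in 7.15%. Because these 2 windows hold both motifs close together, the 120 bases before each start are shown, 5′ to 3′ on the minus strand, with motif matches in capitals, at chr1:82291440-82291559 for Irs1 and chr8:11008930-11009049 for Irs2.
Irs1: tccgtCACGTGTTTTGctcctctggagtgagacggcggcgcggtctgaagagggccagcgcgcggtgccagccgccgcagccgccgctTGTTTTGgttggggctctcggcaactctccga
Irs2: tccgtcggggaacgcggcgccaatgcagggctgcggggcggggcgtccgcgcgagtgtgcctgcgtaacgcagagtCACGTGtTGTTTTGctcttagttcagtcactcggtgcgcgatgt
In Irs1 the E-box runs from base -115 to -110 and overlaps the first TGTTTTG, from -111 to -105, and a further TGTTTTG runs from -32 to -26. In Irs2 the E-box runs from -44 to -39 and TGTTTTG from -37 to -31. The FoxO element GTAAACA (3.65% of windows), the glucocorticoid response element ACANNNTGT (6.85%) and the cyclic AMP response element TGACGTCA (1.79%) had no match in the 9 windows. The name FoxO element stands here for these letters alone, so no match does not mean that a window lacks a FoxO site. A match is a run of letters and says nothing of binding, and the windows of Pik3r1, Igf1, Igf1r, Igfbp5, Foxo1 and Foxo3 held none of these letters.

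Irs2 was the most variable member. Control mice measured 49.9, 15.4, 7.09, 13.6 and 34.5 TPM, and Control + rFibcd1 mice measured 37.4, 8.90, 29.0, 5.25 and 9.19 TPM. LLC mice measured 9.53, 22.1 and 21.3 TPM, and LLC + rFibcd1 mice measured 10.6, 13.8, 22.9 and 28.5 TPM. The highest Control mouse was 7.04 times the lowest, and all groups overlapped. The residual SD of Irs2 within groups was 0.94 on the log2 scale, larger than in 97.0% of genes, against a median of 0.15. With that spread, LLC against Control gave -0.21 (SE 0.64, 95% interval -1.58 to 1.15, limma adjusted p = 0.812), an interval wide enough to hold changes of over 1 log2 unit in either direction. That value was -0.32 to -0.42 under the 3 other scalings and 0.16 without LLC replicate 1. Igf1 (0.43), Igfbp5 (0.32) and Foxo1 (0.31) also had residual SDs above the median gene, while Igf1r (0.11) and Foxo4 (0.07) were below it.

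Among the 10 tumor-free mice, the 4 with the highest Irs2 (Control replicates 1 and 5, Control + rFibcd1 replicates 1 and 3) measured 29.0 to 49.9 TPM and the other 6 measured 5.25 to 15.4 TPM. This split was noticed after the values were seen and is given as a description. The same 4 mice were the 4 highest for Tsc22d3, Klf15 and Per1, genes known to respond to glucocorticoids: Tsc22d3 measured 61.9 to 90.1 TPM in them and 35.1 to 58.9 TPM in the others, Klf15 44.9 to 60.6 against 33.5 to 44.2 TPM, and Per1 37.2 to 58.5 against 16.5 to 33.5 TPM. Per1 is also a clock gene, and the labels give no dissection time. The remaining 3 listed genes of the glucocorticoid response overlapped, with 3 of the 4 mice shared for Fkbp5, 3 for Zbtb16 and 2 for Klf9. The 7 tumor-bearing mice did not show this separation: the 4 with the highest Irs2 (21.3 to 28.5 TPM, against 9.53 to 13.8 TPM) shared 3 of the 4 highest mice for Tsc22d3, Klf15, Per1 and Zbtb16, 2 for Klf9 and 1 for Fkbp5, and their range overlapped that of the other 3 mice for all 6 genes. Of all 13305 genes, 137 (1.03%) had the 4 tumor-free mice on top. Among members, Foxo1, Foxo3, Igf1r and Eif4ebp1 each shared 3 of those 4 mice, whereas Pdk4, a FoxO target that restrains glucose oxidation, shared 2 and was highest, at 810 TPM, in a mouse outside the 4. What the 4 tumor-free mice have in common was not tested.

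**Figure D3:**
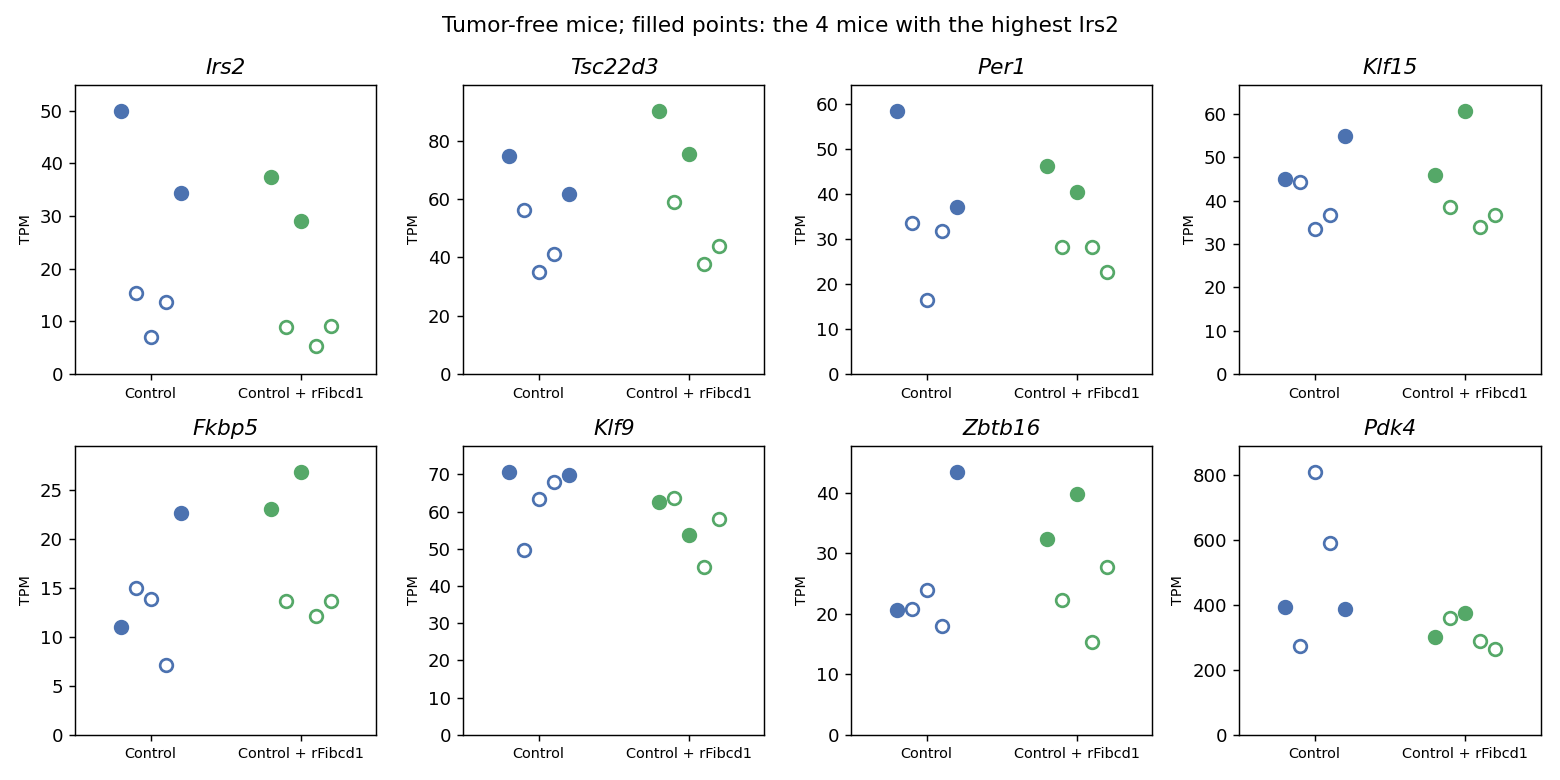
Levels in TPM (vertical axes from 0) of Irs2, the 6 listed glucocorticoid response genes and Pdk4 in the 10 tumor-free mice, by group; filled points mark the 4 mice with the highest Irs2. The filled points are above all open points for Irs2, Tsc22d3, Per1 and Klf15, and mix with open points for Fkbp5, Klf9, Zbtb16 and Pdk4.

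Irs1 varied less. Control mice measured 8.66, 8.50, 7.61, 6.94 and 10.8 TPM, Control + rFibcd1 mice 8.21, 9.44, 9.07, 7.23 and 9.45 TPM, LLC mice 7.32, 7.34 and 8.31 TPM, and LLC + rFibcd1 mice 9.71, 8.55, 10.1 and 11.1 TPM. LLC against Control gave -0.12 (SE 0.12, limma adjusted p = 0.414), past the threshold with quantile normalization only (-0.40, adjusted p = 0.0334). All LLC + rFibcd1 mice were above all LLC mice, by 0.33 on the log2 scale (SE 0.12, limma unadjusted p = 0.0173), which missed the threshold after adjustment (adjusted p = 0.196). In that comparison, LLC + rFibcd1 against LLC, limma called 0 of the 10 members and 0.113% of all genes, and 2 members (Irs1 and Pik3r1) had an unadjusted p under 0.05, as had 22.7% of all genes. The groups did not overlap for 3 members, Irs1, Pik3r1 and Foxo3, against 14.6% of all genes.

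Igf1r, the receptor tyrosine kinase for IGF-1, was low and steady. Control mice measured 4.95, 4.85, 4.61, 4.04 and 5.14 TPM, Control + rFibcd1 mice 4.69, 3.86, 4.22, 3.76 and 4.10 TPM, LLC mice 4.14, 4.01 and 4.76 TPM, and LLC + rFibcd1 mice 3.85, 4.07, 3.28 and 3.60 TPM. The LLC + rFibcd1 mice were mostly the lowest and the Control mice mostly the highest, with 1 Control mouse, at 4.04 TPM, inside the LLC + rFibcd1 range. LLC + rFibcd1 against Control gave -0.28 (SE 0.07, limma adjusted p = 0.0537) and tumor-bearing against tumor-free mice gave -0.13 (SE 0.05, limma adjusted p = 0.0666), both short of the threshold with TPM as deposited. The difference between LLC + rFibcd1 and Control was past it without mitochondrial genes (-0.36, adjusted p = 0.0214) and with median-ratio scaling (-0.33, adjusted p = 0.0203), but not with quantile normalization (-0.37, adjusted p = 0.0510). LLC against Control, at -0.11 (SE 0.08, adjusted p = 0.301), was past it with median-ratio scaling (-0.26, adjusted p = 0.0205) and quantile normalization (-0.43, adjusted p = 0.00963). The pooled tumor difference passed the threshold under each of the 3 other scalings, at -0.22 without mitochondrial genes (adjusted p = 0.00928), -0.25 with median-ratio scaling (adjusted p = 0.00301) and -0.35 with quantile normalization (adjusted p = 0.00247). The insulin receptor Insr, at 18.8 ± 2.22 TPM in Control mice and 18.4 ± 1.57 TPM in LLC mice, differed by -0.03 (SE 0.15, limma adjusted p = 0.880), or -0.14 to -0.24 under the 3 other scalings. Igf2r, which clears Igf2 from the cell surface, was the 1 receptor gene of 3 called in LLC + rFibcd1 against Control + rFibcd1, at 22.6 ± 0.906 TPM (n = 4) against 19.4 ± 1.12 TPM (n = 5), a log2 change of 0.21 (SE 0.06, limma adjusted p = 0.0347) that missed the threshold under the 3 other scalings (0.08 to 0.15, adjusted p 0.175 to 0.511). Of all genes, 7.02% were called higher in that comparison.

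The ligand Igf1, a growth factor that muscle makes locally, measured 4.16, 4.79, 4.67, 4.50 and 3.28 TPM in Control mice and 7.31, 4.48 and 6.23 TPM in LLC mice. It measured 6.07, 7.55, 1.78, 2.76 and 3.81 TPM in Control + rFibcd1 mice and 4.03, 6.68, 3.82 and 3.66 TPM in LLC + rFibcd1 mice. The groups overlapped, and the widest spread, 4.24-fold, was in the Control + rFibcd1 group. LLC against Control gave 0.39 (SE 0.29, 95% interval -0.23 to 1.02, limma adjusted p = 0.296). It shrank to 0.24 with median-ratio scaling and 0.08 with quantile normalization, and was 0.26 without LLC replicate 1. Igfbp5 ranged from 134 to 278 TPM, with the lowest value in Control + rFibcd1 replicate 3, also the lowest mouse for Igf1, and the highest in LLC replicate 1, and its log2 change in LLC against Control was 0.17 (SE 0.22, adjusted p = 0.572). That change was -0.02 under median-ratio scaling and ranged from 0.05 to 0.35 when 1 LLC mouse was left out. The second ligand, Igf2, at 12.1 ± 1.13 TPM in Control mice, differed by -0.07 (SE 0.10, limma adjusted p = 0.585), or -0.18 to -0.33 under the 3 other scalings. Igfbp7, another secreted protein of the family, was the only 1 of the 9 tested ligand and binding protein genes called: it rose from 167 ± 25.4 TPM in Control mice to 273 ± 28.1 TPM in LLC mice (0.71, SE 0.14, limma adjusted p = 0.00942) and from 158 ± 20.3 to 256 ± 40.9 TPM in the rFibcd1 pair (0.69, SE 0.13, adjusted p = 0.00683), and passed under all 3 other scalings in both, but not in LLC against Control without LLC replicate 3 (adjusted p = 0.0697). Of all genes, 29.7% were called higher in LLC against Control and 7.02% in the rFibcd1 pair.

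Eif4ebp1, the repressor of cap-dependent translation that mTOR inactivates, measured 100.1, 104, 67.0, 76.3 and 81.5 TPM in Control mice and 143, 79.1 and 106 TPM in LLC mice. It measured 101, 74.6, 94.3, 79.5 and 90.6 TPM in Control + rFibcd1 mice and 117, 104, 79.3 and 79.6 TPM in LLC + rFibcd1 mice. The groups overlapped, and LLC against Control gave 0.32 (SE 0.19, limma adjusted p = 0.184). That value depends on single mice, at 0.53 (adjusted p = 0.0438) without LLC replicate 2 and 0.11 (adjusted p = 0.697) without LLC replicate 1. It was 0.14 (adjusted p = 0.565) with median-ratio scaling.

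**Figure D4:**
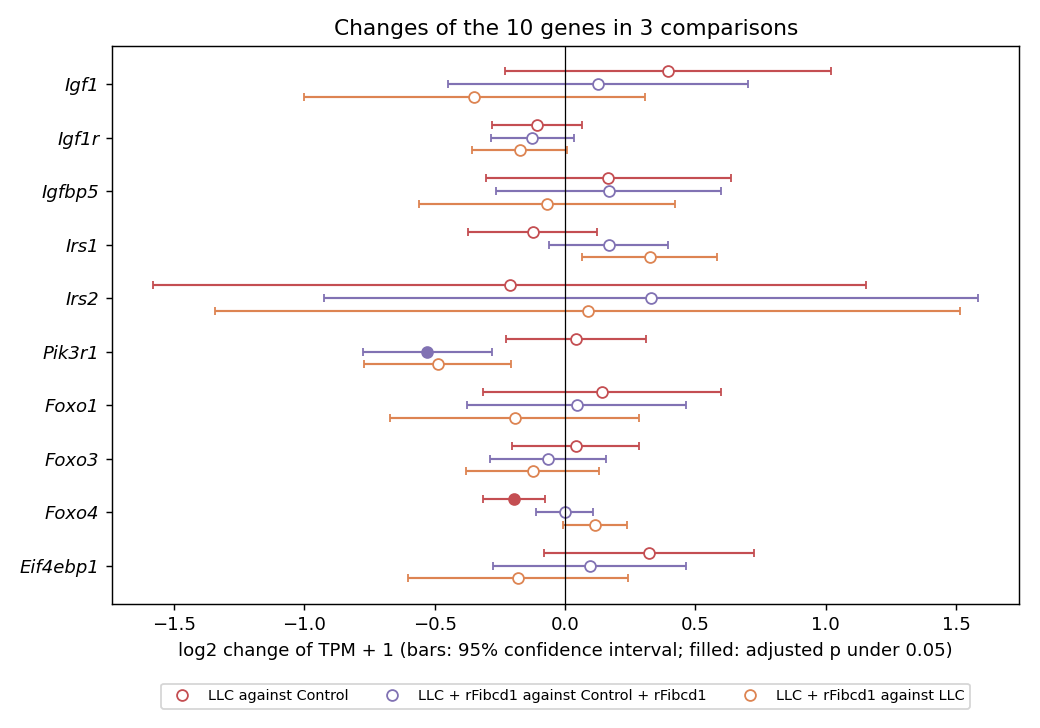
Log2 change of TPM + 1 (horizontal axis) of the 10 genes in LLC against Control, LLC + rFibcd1 against Control + rFibcd1, and LLC + rFibcd1 against LLC; points are estimates from limma, bars are 95% confidence intervals, and filled points have an adjusted p under 0.05. Foxo4 (-0.19) and Pik3r1 (-0.53) carry the filled points, and the intervals of Irs2 are the widest.

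With TPM as deposited, the 10 genes gave no call in either comparison of rFibcd1 with mock injection. The same held in LLC + rFibcd1 against Control, where tumor and rFibcd1 differ together, and in the interaction. In Control + rFibcd1 against Control, limma called 0 of the 10 members and 0% of all genes, 1 member (Igf1r, -0.16, SE 0.07) had an unadjusted p under 0.05, against 4.39% of all genes, and no member's groups failed to overlap, against 0.812%. The exact permutation test, unadjusted, gave p under 0.05 for 1 member there, Foxo4 (-0.08, p = 0.0238). In LLC + rFibcd1 against Control, limma called 0 members and 3.08% of all genes, 2 members (Pik3r1 and Igf1r) had an unadjusted p under 0.05, as had 19.9% of all genes, and Pik3r1 alone did not overlap, against 8.88% of all genes. The interaction called 0 members and 0% of all genes with limma, and 2 members (Pik3r1 and Foxo4) had an unadjusted p under 0.05, as had 8.58% of all genes. Among the 7 tumor-bearing and 10 tumor-free mice, no member was without overlap, against 2.26% of all genes. Comparisons that share a group, such as those against Control, are not independent of each other.

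Of 73 other listed pathway genes tested, 14 were called higher and 7 lower in LLC against Control, where 29.7% of all genes were called higher and 6.02% lower. The counts in LLC + rFibcd1 against Control + rFibcd1 were 10 higher and 1 lower (all genes, 7.02% and 1.04%), and with tumor-bearing set against tumor-free mice 28 higher and 7 lower (38.8% and 5.98%). These directions depend on scaling: with median-ratio scaling the counts were 6 higher and 13 lower in the first comparison, 1 higher and 2 lower in the second, and 4 higher and 11 lower in the third. The median log2 change of the 73 genes was 0.08 in LLC against Control, against 0.16 over all genes. In LLC against Control, called under all 4 scalings, were Ptpn1, a phosphatase that shuts off the insulin receptor (0.75, SE 0.20, adjusted p = 0.0144), and Pik3cg, a catalytic subunit known from leukocytes (0.97, SE 0.24, adjusted p = 0.0128). Pik3cg measured 2.10, 2.87 and 2.82 TPM in LLC mice and 0.48 to 1.17 TPM in Control mice. Pik3cd, likewise known from leukocytes, was called with TPM as deposited (0.70, SE 0.24, adjusted p = 0.0340) but under none of the 3 other scalings. The summed B cell, T cell and neutrophil markers were higher in the same LLC mice. With the macrophage score as a covariate, the log2 change was 0.48 (adjusted p = 0.209) for Pik3cg and 0.30 (adjusted p = 0.454) for Pik3cd. With the B cell score it was 0.34 (adjusted p = 0.358) for Pik3cg and 0.05 (adjusted p = 0.897) for Pik3cd. Neither score overlapped between LLC and Control mice, so these fits cannot separate the scores from the tumor. The part of leukocytes in the Pik3cg and Pik3cd values was not tested.

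Of 6 genes of insulin-driven glucose handling, 2 were called higher and 2 lower in LLC against Control (all genes, 29.7% and 6.02%). Hk2, the hexokinase that traps glucose in muscle, fell from 178 ± 25.9 to 134 ± 5.88 TPM (-0.40, SE 0.10, adjusted p = 0.0136). Tbc1d4, an Akt substrate that holds back glucose transporter vesicles, fell from 44.7 ± 5.94 to 34.2 ± 1.90 TPM (-0.37, SE 0.11, adjusted p = 0.0235), while its relative Tbc1d1 was higher (0.50, SE 0.11, adjusted p = 0.0111), except that quantile normalization lost the call. Sod2, the mitochondrial superoxide dismutase and a FoxO target, fell from 209 ± 10.9 to 173 ± 11.4 TPM (-0.27, SE 0.05, adjusted p = 0.00808), and the adaptor Grb14 (-0.36, SE 0.12, adjusted p = 0.0344) and the stress gene Gadd45a (-0.34, SE 0.12, adjusted p = 0.0339) were also lower. These 5 genes, Hk2, Tbc1d4, Sod2, Grb14 and Gadd45a, were called lower under all 4 scalings. Srebf1, a lipogenic factor that insulin induces, was higher (1.01, SE 0.34, adjusted p = 0.0324). The summed adipocyte markers were 234 to 1051 TPM in LLC mice and 106 to 424 TPM in Control mice, 0 of 5 called with a median log2 change of 1.72, and their part in the Srebf1 value was not tested. Of 17 named pathway genes called in LLC against Control, 0 kept the call without LLC replicate 3 or with either marker score as a covariate, while without LLC replicate 1 it was kept by 6 (Igfbp7, Ptpn1, Pik3cg, Pik3r2, Sod2 and Tbc1d1). The calls lost with a score did not all have smaller changes: with the macrophage and the B cell score the log2 change was -0.49 and -0.41 for Tbc1d4, -0.71 and -0.68 for Foxo6, -0.26 and -0.23 for Sod2, but 0.36 and 0.24 for Ptpn1. The adaptors Shc1 (0.36, SE 0.10, adjusted p = 0.0161) and Grb2 (0.31, SE 0.10, adjusted p = 0.0246) and the translation factor Eif4b (0.18, SE 0.06, adjusted p = 0.0323) were called higher with TPM as deposited. Grb2 and Eif4b lost the call under the 3 other scalings, with Eif4b at -0.0050 under median-ratio scaling, and Shc1 lost it under quantile normalization. Akt1 was called higher (0.21, SE 0.07, adjusted p = 0.0333), a call lost under the 3 other scalings, Akt2 gave -0.08 (SE 0.05, adjusted p = 0.172) and Mtor gave 0.08 (SE 0.07, adjusted p = 0.367). Deptor, an mTOR-binding inhibitor, was lower in tumor-bearing against tumor-free mice (-0.35, SE 0.11, adjusted p = 0.0165) under all 4 scalings but not with the B cell score (-0.38, adjusted p = 0.121). The ribosomal S6 kinase gene Rps6kb2 was called higher (0.13, SE 0.04, adjusted p = 0.0271) only with TPM as deposited.

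The FoxO target genes were called in different numbers by comparison, and the difference was not tested for the list. Of 20 tested, members included, 0 were called higher and 2 lower in LLC against Control (all genes, 29.7% and 6.02%), 4 higher and 1 lower in LLC + rFibcd1 against Control + rFibcd1 (7.02% and 1.04%), and 8 higher and 2 lower when tumor-bearing mice were set against tumor-free mice (38.8% and 5.98%). With median-ratio scaling only 4 of all 73 other pathway genes, and no member, were called higher in that last comparison. At most 4 of the 8 thus kept the call. The ubiquitin ligase Fbxo32 measured 70.5 to 93.1 TPM in Control mice, 61.5 to 91.5 TPM in Control + rFibcd1 mice and 71.8 to 98.5 TPM in LLC mice. Its 4 LLC + rFibcd1 mice measured 174, 96.3, 110 and 113 TPM. The log2 change was -0.04 (SE 0.17, limma adjusted p = 0.857) in LLC against Control and 0.65 (SE 0.16, adjusted p = 0.0244) in the rFibcd1 pair. Trim63, the second ligase, gave -0.10 (SE 0.24, adjusted p = 0.762) and 0.86 (SE 0.22, adjusted p = 0.0272). For both ligases the calls in the rFibcd1 pair were lost under the 3 other scalings (adjusted p 0.0575 to 0.144), and the interaction missed the threshold (adjusted p = 0.331 for Fbxo32 and 0.319 for Trim63). Both calls were also lost with only the groups compared in the fit and with the replicate block. The autophagy genes Bnip3 (0.35, SE 0.09, adjusted p = 0.0368) and Map1lc3b (0.25, SE 0.05, adjusted p = 0.00677) were the other 2 called higher there, and Akt2 (0.22, SE 0.04, adjusted p = 0.00768) and Gsk3a (0.23, SE 0.03, adjusted p = 0.00202) were called higher as well. These 4 calls were lost under the 3 other scalings, except that Gsk3a stayed called without mitochondrial genes (0.16, adjusted p = 0.0233). Several of these calls rest on single mice. Leaving out Control + rFibcd1 replicate 4 or 5 ended the call of Fbxo32 (adjusted p up to 0.0554). That of Trim63 was lost without Control + rFibcd1 replicate 2, 4 or 5 or LLC + rFibcd1 replicate 1 or 4 (up to 0.0677). That of Bnip3 was lost without Control + rFibcd1 replicate 2, 4 or 5 or LLC + rFibcd1 replicate 3 (up to 0.0860). Pik3r3 lost its call without Control + rFibcd1 replicate 3 or 4 or LLC + rFibcd1 replicate 1, 2 or 3 (up to 0.0964). The LLC + rFibcd1 group had the highest mean Fbxo32 and Trim63, at 123 ± 34.4 and 158 ± 43.6 TPM. In LLC + rFibcd1 against LLC, 0 of the 20 FoxO target genes were called, against 0.113% of all genes. A link between the ligases and Pik3r1, Foxo1 or Foxo3 was not tested.

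**Figure D5:**
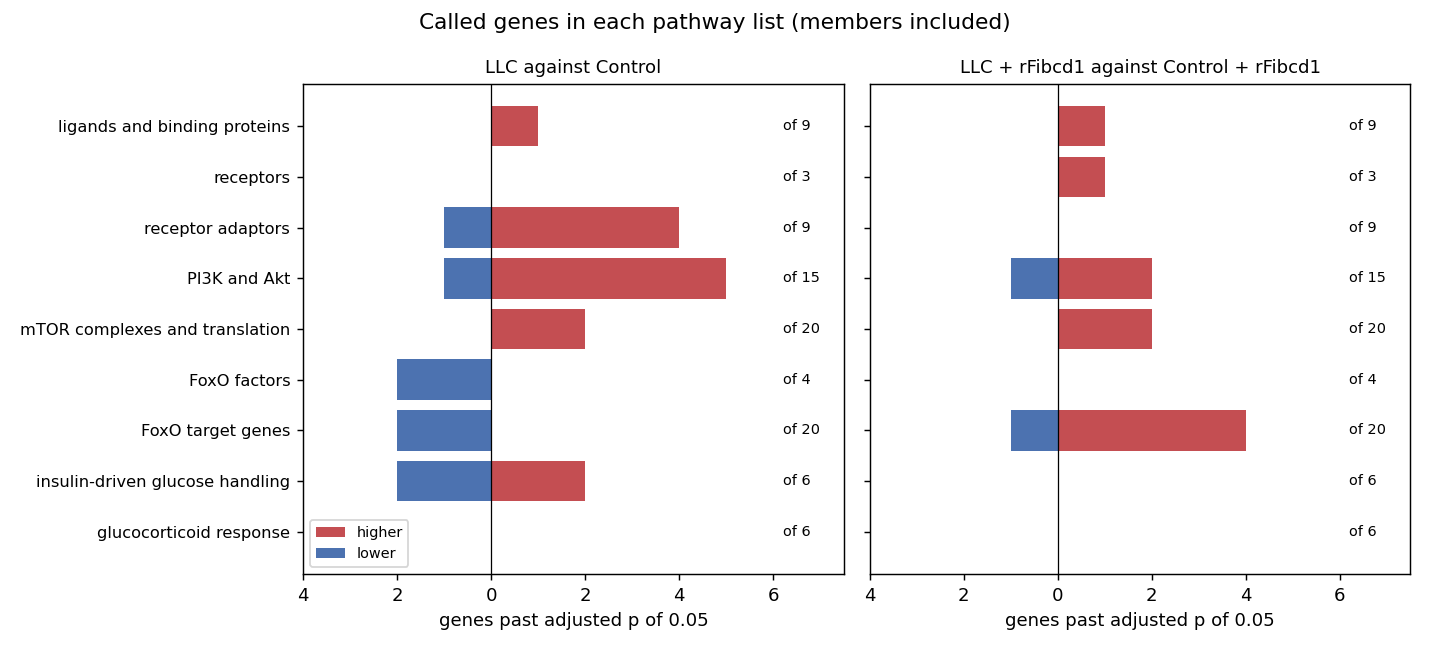
Number of genes called higher (right of 0) or lower (left of 0) at an adjusted p of 0.05 in each pathway list, members included, for LLC against Control and LLC + rFibcd1 against Control + rFibcd1; the number tested is printed at the right of each row. FoxO target genes have 0 higher and 2 lower in the first panel and 4 higher and 1 lower in the second.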

How the data were processed

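The authors aligned paired reads to GRCm38 (mm10 per the labels) in CLC Genomics Workbench, and the deposited values are TPM. The annotation release and use of strand were not given in the sources used here. Groups were read from sample titles, each column was 1 mouse, and 0 columns were left without a sample. The 13305 genes that reached 1 TPM in 3 samples or more were tested as log2(TPM + 1) with limma 3.58.1 in R 4.3.3: 1 model of 4 groups, 13 residual degrees of freedom, expression trend, 7 contrasts. The tumor contrast over all mice was weighted by group size. Read numbers were estimated from the steps of low values with GENCODE vM21 exon lengths, where 80.6% to 83.3% of low values fell within 0.02 of a whole read, and entered no test. The model was tested on simulated data. Members and lists were chosen with earlier results of these data known. Named are all members, up to 4 called genes of each pathway list with the largest tumor change, up to 4 genes called in a contrast of rFibcd1, and Fbxo32, Trim63, Insr, Igf2, Akt1, Akt2 and Mtor. Pik3r3, Igf2r, Map1lc3b, Tsc22d3, Klf15, Per1, Fkbp5, Zbtb16 and Pdk4 were added after their values were seen. A gene that the naming rule selects is not reported here. Alternatives covered the pseudocount, filter, scaling, samples in the fit, moderation, replicate block, cell marker covariates, exact permutation tests and leaving out each mouse.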

Additional observations from a re-analysis of the deposited data

Results flagged for a closer look

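Of 30 groups of 4 or 5 mice tested over the members, 1 held a mouse apart from the others by Dixon's criterion: Igf1 measured 6.68 TPM in LLC + rFibcd1 replicate 2, where the other 3 mice measured 3.66 to 4.03 TPM. By chance about 1 in 20 such groups would be picked out.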

How the results depend on the processing

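With 1 member called in LLC against Control, the count was 2 with median-ratio scaling (Foxo4 and Igf1r), 3 with quantile normalization (also Irs1), and 0 with the macrophage score, the B cell score or the replicate block, and 0 to 2 over the fits that left out 1 mouse. Of all 13305 genes, 3941 were called with median-ratio scaling and 4685 with quantile normalization. Only 17 were called with the macrophage score, 8 with the B cell score and 5 with the replicate block. In LLC + rFibcd1 against Control + rFibcd1 the member count was 0 with the replicate block or only the groups compared, against 1 otherwise. Those 2 settings called 492 and 304 of all genes, against 1072 in the main fit. In tumor-bearing against tumor-free mice the member count was 3 without mitochondrial genes or with median-ratio scaling, 4 with quantile normalization (Pik3r1, Igf1r, Foxo4 and Foxo3), 0 with the B cell score, the replicate block or only the groups compared, and 0 to 2 with 1 mouse left out. Of all genes, those 3 scalings called 5063, 4812 and 5144. The B cell score left 614, the replicate block 3782 and only the groups compared 5455. In LLC + rFibcd1 against Control, 0 as reported, the member count was 2 (Pik3r1 and Igf1r) without mitochondrial genes, with median-ratio scaling or with the macrophage score, 1 (Pik3r1) with quantile normalization, a pseudocount of 0.1 TPM, the B cell score or only the groups compared, and 0 to 2 with 1 mouse left out. Apart from the fits that left out 1 mouse, these settings called 260 (only the groups compared) to 424 (macrophage score) of all genes. No called value of a member changed sign. Among other pathway genes, Eif4b in LLC against Control turned to -0.0050 with median-ratio scaling, and Rps6kb2 in tumor-bearing against tumor-free mice to -0.015 with median-ratio scaling and -0.031 with quantile normalization, none past the threshold.

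With the replicate block, the adjusted p was 0.0785 for Foxo4 in LLC against Control, 0.0503 for Pik3r1 in LLC + rFibcd1 against Control + rFibcd1 and 0.0516 for Pik3r1 over all mice. The 22 pairs of mice with the same number had correlations of their deviations from -0.459 to 0.485 (median -0.061, against -0.026 for pairs with other numbers). A spread this wide cannot tell whether the numbers mark a pairing or batch of mice. Depth was an estimated 50.7 to 54.7 reads in units of 1000000 per sample, and whether it limited any call was not tested. The cause of these differences between settings was not tested.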
